A study of Mus musculus with 4 samples.

Results

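The Hox genes of the mouse lie in 4 clusters, Hoxa on chromosome 6, Hoxb on chromosome 11, Hoxc on chromosome 15 and Hoxd on chromosome 2. Described here are 38 protein-coding genes whose symbol is Hoxa, Hoxb, Hoxc or Hoxd followed by a number, out of 21631 protein-coding genes of the autosomes and chromosome X. A binding site was linked to a Hox gene when its summit, the base with the highest signal, lay inside the gene or within 100 kb of it with no other protein-coding gene nearer. By this rule 34 of 36576 sites in wild-type epidermis and 9 of 14879 sites in Bmal1 knockout epidermis were linked to one of these genes. The rule used position and name only, not the height of a site.

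The study mapped YAP on the DNA of mouse epidermis by chromatin immunoprecipitation and sequencing (ChIP-seq). YAP is the transcriptional co-activator of the Hippo pathway and reaches DNA mainly through TEAD proteins, whereas BMAL1 is the core activator of the circadian clock and binds E-boxes. Epidermal cell suspensions from the skin of adult mice 18 to 25 weeks old were collected at ZT4, that is 4 h after lights on, from mice labelled Bmal1 WT (WT below) or Bmal1 KO (KO below). The label of the treatment protocol calls the latter Bmal1cKO, and no source used here names the cells in which the gene was deleted. For each genotype there was 1 list of peaks, whose peak names say that it was pooled, and no source used here tells how many animals or libraries went into it. No value below therefore has a replicate error, no test was possible and no p-value is given. Exact 95% Clopper-Pearson intervals are given for shares and cover counting error only. A weaker peak in 1 list can stand for fewer cells with YAP at the site or for less YAP per cell, which cannot be told apart. With 1 list per genotype, a difference in precipitation or library quality cannot be told apart from one of genotype either.

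Hox genes encode homeodomain transcription factors that give cells their position along the body axis. Genes at the anterior end of each cluster (low numbers) act towards the head, and those at the posterior end (high numbers) act in the trunk, limbs and tail. Genes with the same number in different clusters are paralogs. In skin, regional differences between body sites are linked to Hox expression, and Hoxc13 is known for its part in forming hair and nails. The clusters are known targets of Polycomb repression and of Trithorax/MLL activation, and of retinoic acid in the embryo.

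YAP peaks were present at 3 of the 4 clusters. In WT, 8 peaks were linked to Hoxa genes, 16 to Hoxb genes and 10 to Hoxc genes, and no peak was linked to any of the 9 Hoxd genes. In KO the counts were 2, 3, 4 and 0. Of the 38 Hox genes, 14 (36.8%, interval 21.8 to 54.0%) had a linked WT peak, against 52.5% of all protein-coding genes, and 7 had a linked KO peak, against 29.8% of all protein-coding genes. Hox genes are short, with a median span of 3.72 kb against 17.3 kb for all genes, and whether their length bears on this share was not tested. All 9 KO peaks overlapped a WT peak, as did 99.0% of all KO peaks, so none of these Hox genes had a site called in KO alone. Of the 34 WT summits, 18 lay inside a Hox gene, 7 between Hox genes and 9 outside the clusters.

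**Figure D1:**
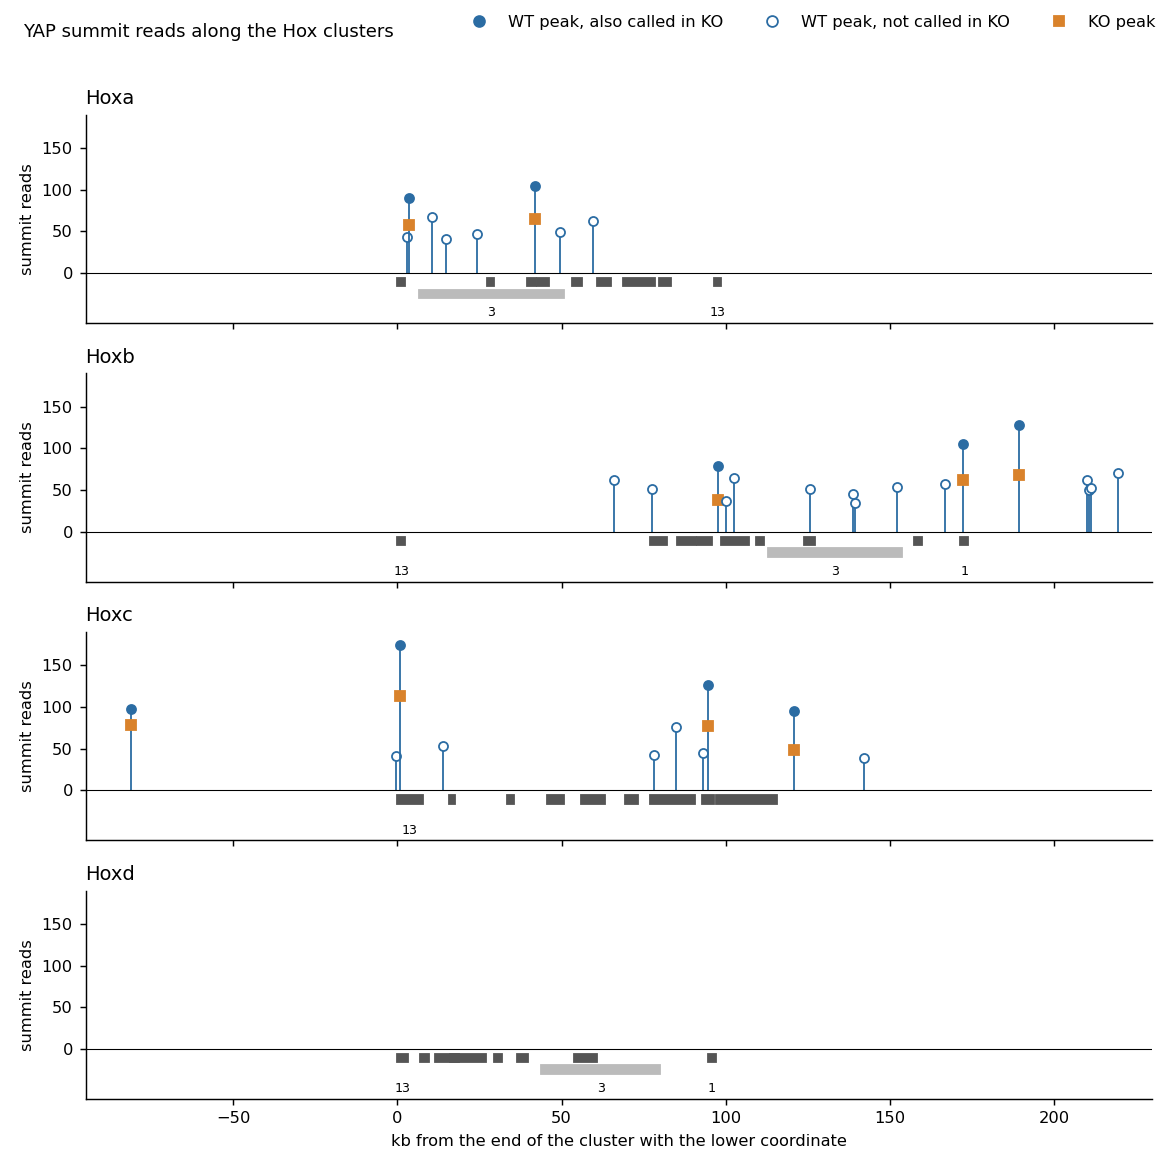
Summit reads (vertical axis) of the 34 YAP peaks linked to the Hox genes described, by distance in kb from the end of the cluster with the lower coordinate (horizontal axis), with gene spans as grey boxes and paralog numbers 1, 3 and 13 under them. Filled circles are WT peaks that overlap a KO peak, open circles are WT peaks that do not, and squares are KO peaks. All 9 KO squares lie below their WT circle, and the Hoxd panel holds no peak.

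The height of a peak is given below as summit reads, the whole number of reads over the summit that was recovered from the deposited fold and p of the peak and that is in the same unit in both lists. Evenly spread reads would give 9.63 reads at any base, and the weakest peak called anywhere had 28 reads in WT and 29 in KO. The Hox-linked WT peaks had 34 to 174 summit reads with a median of 55.5, and all WT peaks had a median of 61. A WT peak that shared 1 bp or more with a KO peak is called kept, and otherwise WT-only. The log2 KO to WT ratio of a kept peak was taken after subtraction of 9.63 reads on both sides, and the error given with it is the standard error from counting reads.

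At the Hoxa cluster, counted from Hoxa2 to Hoxa13 (chr6:52162417-52260880, mm10), 8 WT peaks were linked to 4 genes, Hoxa2, Hoxa3, Hoxa5 and Hoxa9, and 2 of them were kept. Hoxa2, which patterns the cranial neural crest, had 2 WT peaks before its start site, the base where RefSeq begins the transcript. The peak at chr6:52165749-52166302, with its summit 1173 bp upstream, had 90 reads in WT and 58 in KO (log2 ratio -0.73, SE 0.28). The nearer one at chr6:52164969-52165535, 531 bp upstream, had 43 reads in WT and was WT-only. Hoxa5, a gene of lung and axial development, had 1 peak at chr6:52204032-52204765, and its summit lay 127 bp downstream of the start site. This peak had 105 reads in WT and 65 in KO (log2 ratio -0.78, SE 0.26). By the ratio of the authors' deposited fold the same peak differed by only -0.01 on the log2 scale, where the background recovered at the summit was 15.9 reads in WT and 9.63 in KO.

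RefSeq promoter windows (250 bases before to 50 after a start site, build GRCm38.p6, which is mm10) were given for 22 of the 38 Hox genes, 24 windows in all. A WT peak touched 2 of them, those of Hoxa2 and Hoxa5, against 25.8% of 32619 windows in the whole table. A KO peak touched the Hoxa5 window only, against 7.71% of all windows. The windows were unevenly spread, with 10 for Hoxa, 3 for Hoxb, 1 for Hoxc and 10 for Hoxd. For the other Hox genes, Hoxb6 and Hoxc13 among them, no window was given, so peaks at their promoters could not be counted. Of the Hox windows given, a YAP peak touched only those of Hoxa2 and Hoxa5, so the 250 bases before these 2 start sites are shown. They are given 5′ to 3′ along the gene (minus strand), with the bases that the WT peak covers in capitals, 178 bases of Hoxa5 (chr6:52204588-52204837) and 113 of Hoxa2 (chr6:52164832-52165081).
Hoxa5: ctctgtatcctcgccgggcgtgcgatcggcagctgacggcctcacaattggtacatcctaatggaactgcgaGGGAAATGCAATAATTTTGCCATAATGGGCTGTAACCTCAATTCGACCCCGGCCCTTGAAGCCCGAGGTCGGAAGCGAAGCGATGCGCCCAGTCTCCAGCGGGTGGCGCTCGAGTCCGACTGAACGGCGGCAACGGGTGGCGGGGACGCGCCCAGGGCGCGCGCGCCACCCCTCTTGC
Hoxa2: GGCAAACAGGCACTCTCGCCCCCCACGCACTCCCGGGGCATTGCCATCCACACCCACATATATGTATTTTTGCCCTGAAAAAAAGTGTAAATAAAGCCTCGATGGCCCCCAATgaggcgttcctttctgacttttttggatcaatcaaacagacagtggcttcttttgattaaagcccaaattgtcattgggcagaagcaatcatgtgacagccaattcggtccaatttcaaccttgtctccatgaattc
The Hoxa5 stretch was 63.6% G or C and the Hoxa2 stretch 46.4%. Neither window held the TEAD motif GGAATG, the AP-1 motif TGANTCA or the E-box CACGTG on either strand. Each search says only that these letters are not in the window, and the summits of the 2 touching peaks lay outside the windows.

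Hoxa3, needed for the thymus and parathyroid, had 4 WT peaks with 67, 41, 47 and 49 reads, and all 4 were WT-only. RefSeq gives Hoxa3 a span of 44009 bp that runs across Hoxa4, Hoxa5 and Hoxa6, so that 3 of these summits lay 26283 to 40138 bp downstream of its start site and only that with 49 reads lay near it, 1214 bp away. Hoxa9, a gene of posterior patterning and blood progenitors, had 1 WT-only peak of 62 reads, 1150 bp outside its span. Hoxa4, Hoxa6, Hoxa7, Hoxa10, Hoxa11 and Hoxa13 had no linked peak in either genotype. All 8 peaks thus lay between Hoxa2 and Hoxa9, and the 3 most posterior genes of the cluster were without one. Outside the cluster, the nearest gene other than a Hox gene on the anterior side was Skap2, with 8 WT peaks of which 3 were kept. On the other side it was the homeobox gene Evx1, with none, and the next WT summit lay 182.8 kb away.

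The Hoxb cluster (chr11:96194316-96368254) had the most peaks, 16 in WT, and 3 of them were kept. Hoxb1, which specifies a segment of the hindbrain, had 7, the most of any Hox gene, and only that at chr11:96366402-96367123 lay inside it. This peak had 105 reads in WT and 62 in KO (log2 ratio -0.86, SE 0.27), and its summit lay 966 bp from the start site. The strongest peak of the cluster, at chr11:96383140-96384063, lay 15332 bp beyond the end of Hoxb1. It had 128 reads in WT and 68 in KO (log2 ratio -1.02, SE 0.25). Farther out on the same side, 4 WT-only peaks lay 36070 to 45461 bp from Hoxb1. The farthest of these was the strongest WT-only peak of the cluster with 70 reads, and the nearest had 62. The seventh Hoxb1 peak, with 57 reads, was WT-only and lay between Hoxb1 and Hoxb2.

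Hoxb6 had 3 WT peaks. The peak at chr11:96291852-96292957 reached into the gene, with its summit 734 bp outside it on the Hoxb7 side. It had 79 reads in WT and 38 in KO, was the weakest kept Hox peak and had the lowest log2 ratio of the 9, -1.29 (SE 0.36). Its WT width was 1106 bp and its KO width 523 bp, and it no longer counted as kept when both peaks had to overlap by 50% of their length. The other 2 Hoxb6 peaks, with 64 and 37 reads, were WT-only. Hoxb9 had 2 WT-only peaks, with 51 reads inside the gene and 62 reads 10920 bp outside it. Hoxb3 had 3 WT-only peaks of 34 to 54 reads, and Hoxb4, known for the expansion of blood stem cells, had 1 of 51 reads. No peak was linked to Hoxb2, Hoxb5, Hoxb7, Hoxb8 or Hoxb13. Of the neighbours, Ttll6 had no WT peak, and Skap1 had 1, which was WT-only.

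At the Hoxc cluster (chr15:102921131-103036856), 10 WT peaks were linked to Hoxc4, Hoxc5, Hoxc6, Hoxc12 and Hoxc13, and 4 of them were kept. Hoxc13, the member known for hair and nails, carried the strongest Hox-linked peak in both genotypes, at chr15:102921328-102922726, with 174 reads in WT and 113 in KO (log2 ratio -0.67, SE 0.19). Its summit lay inside the gene, 944 bp from the lower end. It spanned 1399 bp in WT, the widest of the 34 peaks, against 656 bp in KO, and this peak too did not pass the 50% reciprocal overlap. A WT-only peak of 41 reads lay 398 bp outside the same end of Hoxc13. The remaining Hoxc13 peak, at chr15:102839610-102840204, lay 81250 bp outside the cluster.

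That distant Hoxc13 peak had 97 reads in WT and 78 in KO, the smallest difference among the 9 kept Hox peaks, with a log2 ratio of -0.35 (SE 0.25). Kept peaks of all genes with WT reads within 10% of it had a median log2 ratio of -0.98, and the middle 50% of them ran from -1.17 to -0.81. By the ratio of the authors' deposited fold it was slightly higher in KO, by 0.10 on the log2 scale. The background recovered at its summit was 12.97 reads in WT and 9.63 in KO, and with that background subtracted the log2 ratio was -0.30. The peak was singled out here after its value was seen, as the highest of 9.

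Inside Hoxc5, the peak at chr15:103014975-103016033 had 126 reads in WT and 77 in KO (log2 ratio -0.79, SE 0.23), and a WT-only peak of 45 reads lay within 1 kb of it. Hoxc6 had the strongest WT-only Hox peak of all clusters, chr15:103005687-103006327, with 76 reads, and a WT-only peak of 42 reads. The peak at chr15:103041559-103042169, 4948 bp beyond Hoxc4 and inside the lncRNA gene Gm30528, had 95 reads in WT and 48 in KO (log2 ratio -1.15, SE 0.31). Its background was high, 20.2 reads in WT and 12.5 in KO, and by the authors' deposited fold its log2 ratio was -0.31. The remaining WT-only peaks had 39 reads (Hoxc4, 26465 bp outside the cluster) and 53 reads (Hoxc12, 1741 bp from the gene). Between Hoxc12 and Hoxc6, the genes Hoxc8, Hoxc9, Hoxc10 and Hoxc11 had no peak in either genotype. The flanking gene Calcoco1 had 6 WT peaks, 2 of them kept, and Smug1 had 2, both WT-only.

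The Hoxd cluster (chr2:74668225-74765142) had no YAP peak in WT or in KO. Hoxd13, Hoxd12, Hoxd11, Hoxd10 and Hoxd9, which act in limb and digit formation, and Hoxd8, Hoxd4, Hoxd3 and Hoxd1 were all without one. The flanking genes Evx2, 6.71 kb away, and Mtx2, 60.7 kb away, had none in WT either. The nearest WT summits lay 89.3 kb below the cluster, linked to Lnpk with 45 reads and WT-only, and 282.0 kb above it. The latter peak, chr2:75046823-75047386, had 97 reads in WT and 42 in KO and lay over 100 kb from any protein-coding gene. Between these summits lay 468.1 kb without a WT peak, whereas the median distance between neighbouring WT summits was 13.4 kb. Of 36556 such distances, 912 (2.49%) were at least as long. Each distance counts once in this share, whereas a long stretch covers more of the genome than a short one. The share is therefore not how often a locus would fall in such a stretch. The stretch was measured because the cluster held no peak, so its length is no separate result. In KO the stretch without a peak was 885.0 kb, in a list of 14879 peaks against 36576 in WT. Distances between KO summits were not ranked.

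The ground nearest to Hoxd genes within 100 kb was 130.6 kb, against 126.0 kb at Hoxa, 236.2 kb at Hoxb and 273.4 kb at Hoxc. At the density of peaks on the ground of all protein-coding genes it would hold 2.39 WT peaks, and at the density of the other 3 clusters 6.99. Chromosome 2 as a whole held 2757 WT peaks, and peak names were numbered without a gap in both lists. How well reads map in the Hoxd cluster could not be read from peak lists.

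In the 24 Hox promoter windows, matches to the 3 motifs were few, and most of them were in Hoxd. The E-box CACGTG, the site bound by BMAL1 with its partner CLOCK, was in 5 of the 24 Hox windows, all 5 of them among the 10 Hoxd windows, against 7.20% of all windows. The TEAD motif GGAATG was in 2 (Hoxa9 and Hoxd10), against 14.6% of all windows, and the AP-1 motif TGANTCA was in 1 (Hoxd11), against 7.85%. None of these 8 matches lay in a window that a YAP peak touched. Among all windows touched by a WT peak, 11.5% held the E-box, 13.4% the TEAD motif and 5.70% the AP-1 motif. Both strands were searched and no match overlapped another. The stretches of 30 bases around the matches are shown, in capitals the motif, since they are the sites that these letters mark in a cluster without YAP peaks and at Hoxa9. Positions count from the start site.
Hoxd13 E-box, position -229 (chr2:74667984-74668013, plus strand): cgcccccaccccCACGTGtcccggcgcagc
Hoxd11 E-box, position -96 (chr2:74682215-74682244, plus strand): tctccatggcgtCACGTGacataattacca
Hoxd10 E-box, position -73 (chr2:74691806-74691835, plus strand): cgggctggggaaCACGTGacctgcaaggag
Hoxd1 E-box, position -21 (chr2:74762947-74762976, plus strand): gctggctggcgcCACGTGgctgccgccgcc
Hoxd4 E-box, position -2 (chr2:74721964-74721993, plus strand): gctatttataagCACGTGattccaataaac
Hoxd10 TEAD, position 23 (chr2:74691901-74691930, plus strand): acaattacaccgGGAATGttttcctagcga
Hoxa9 TEAD, position -48 (chr6:52227401-52227430, minus strand): agaaggaaaaggGGAATGggaaggaagggg
Hoxd11 AP-1, position -20 (chr2:74679527-74679556, plus strand): aataaatgaaaTGACTCAgaatcccttccc
A match describes letters and shows no binding, and with 1 Hoxc and 3 Hoxb windows in the table the clusters cannot be compared by it. Sequence under Hox peaks that lies outside these windows, the Hoxa2 and Hoxa5 summits included, was not analysed here.

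Peaks were also counted per Mb of ground, the bases that lie inside a set of genes or within 100 kb and nearest to it. On Hox ground (766.2 kb) there were 44.4 WT peaks and 11.7 KO peaks per Mb. On the ground of all protein-coding genes there were 18.3 and 7.41, so the Hox ground was denser in WT peaks although a smaller share of its genes had one. Keratin genes, whose products form the filaments of keratinocytes and hair and which are also clustered, had 101.2 and 51.4 per Mb over 53 genes. By cluster the WT density was 67.7 per Mb at Hoxb, 63.5 at Hoxa, 36.6 at Hoxc and 0 at Hoxd. The KO density was 15.9 at Hoxa, 14.6 at Hoxc, 12.7 at Hoxb and 0 at Hoxd. The order depended on the distance: within 10 kb the WT density was 72.9 at Hoxa, 71.8 at Hoxb and 58.9 at Hoxc, and the KO density was 22.1 at Hoxc, 18.2 at Hoxa and 14.4 at Hoxb. Counted over the cluster itself, from its first to its last gene, WT summits numbered 8 in 98.5 kb at Hoxa, 11 in 173.9 kb at Hoxb, 6 in 115.7 kb at Hoxc and 0 in 96.9 kb at Hoxd. These densities rest on 16 peaks or fewer per cluster.

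**Figure D2:**
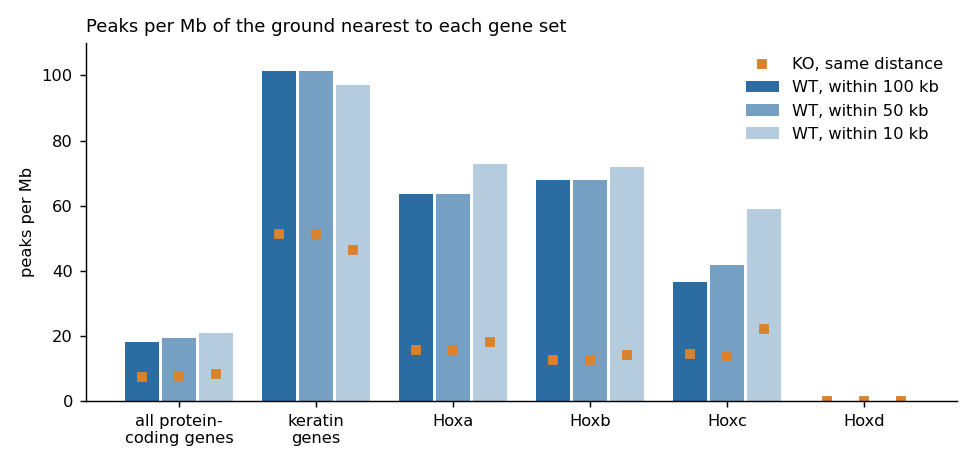
YAP peaks per Mb of ground (vertical axis, from 0) for all protein-coding genes, keratin genes and the 4 Hox clusters, with bars for WT peaks linked within 100, 50 and 10 kb and squares for KO peaks at the same distances. Hoxa, Hoxb and Hoxc stand above the 18.3 WT peaks per Mb of all genes and below the 101.2 of keratin genes at 100 kb, and Hoxd is at 0.

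Along the clusters, the anterior genes (paralog groups 1 to 3) had the most WT peaks. Of the 7 anterior genes 4 had a WT peak, with 16 peaks in all and 69.8 per Mb. Of the 15 central genes (groups 4 to 8) 6 had one, with 11 peaks and 64.9 per Mb. Of the 16 posterior genes (groups 9 to 13) 4 had one, with 7 peaks and 19.0 per Mb. As shares of genes these were 57.1%, 40% and 25%, against 52.5% of all protein-coding genes. Most anterior peaks were at Hoxb1 (7), Hoxa3 (4) and Hoxb3 (3), and the spans of Hoxa3 and Hoxb3 run over central genes. Outside the clusters lay 5 of the anterior, 2 of the central and 2 of the posterior peaks. Summits inside a Hox gene numbered 8 anterior, 8 central and 2 posterior, so by these the anterior class did not lead the central one. The classes were not recounted at the other linking distances. The posterior density was close to the 18.3 per Mb of all protein-coding genes. The posterior class holds 5 of the 9 Hoxd genes, and its other peaks lay at Hoxa9, Hoxb9, Hoxc12 and Hoxc13. No gene of paralog groups 7, 8, 10 and 11 had a peak, whereas other groups were mixed. Hoxc13 had 3 WT peaks whereas Hoxa13, Hoxb13 and Hoxd13 had none. Hoxa9 and Hoxb9 had 1 and 2 whereas Hoxc9 and Hoxd9 had none.

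**Figure D3:**
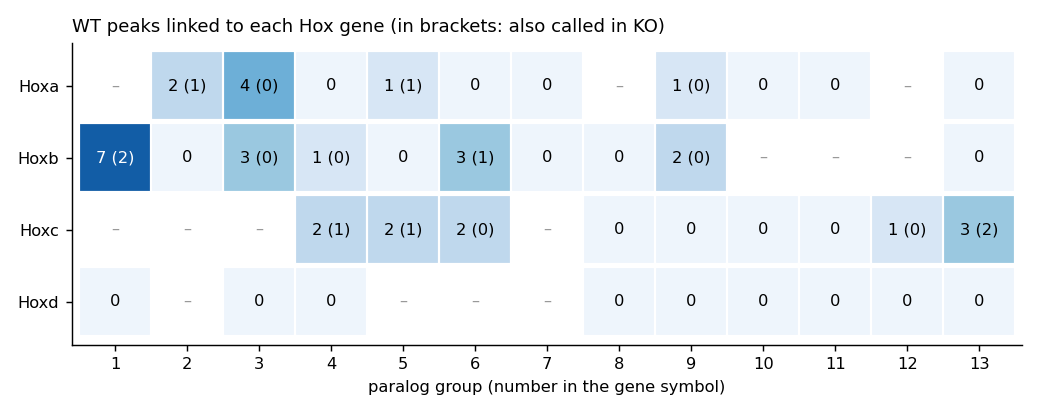
Number of WT peaks linked to each Hox gene, by cluster (rows) and paralog group (columns), with the number also called in KO in brackets; a dash marks a paralog that the mouse lacks or that is not analysed here, and a darker cell holds more peaks. Hoxb1 has 7 peaks, and the Hoxd row holds 0 throughout.

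The genotypes were compared by the share of WT peaks that were also called in KO. Of the 34 Hox-linked WT peaks 9 were kept (26.5%, interval 12.9 to 44.4%), against 39.1% of all 36576 WT peaks, a value inside that interval. By cluster 2 of 8 were kept at Hoxa (25%, 3.19 to 65.1%), 3 of 16 at Hoxb (18.8%, 4.05 to 45.6%) and 4 of 10 at Hoxc (40%, 12.2 to 73.8%). The intervals overlap widely, so that at these numbers no difference between the clusters in the share kept was detectable. Over all keratin genes 48.5% of 130 WT peaks were kept (39.6 to 57.4%). The 9 kept Hox peaks belonged to 7 of the 38 genes, against 29.7% of all protein-coding genes with a kept peak. They were Hoxa2, Hoxa5, Hoxb1, Hoxb6, Hoxc4, Hoxc5 and Hoxc13.

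Whether a Hox peak was kept went with its height in WT. The kept peaks had 79 to 174 WT reads (median 105) and the WT-only peaks 34 to 76 (median 51), so the groups did not overlap. Over all WT peaks the share kept also went with height, from 1.27% of those under 40 reads to 54.9% at 70 to 79 reads and 100% from 150 reads. Given the heights of the 34 Hox peaks, these shares would give 12.1 kept (35.6%), and 9 were seen. For Hoxa it would give 2.64 against 2 seen, for Hoxb 4.88 against 3 and for Hoxc 4.58 against 4. Each count was below its value from height, by fewer than 2 peaks per cluster, and the value for all 34 lay inside the interval of the share kept. Of the 5 Hox peaks with 60 to 69 reads none was kept, where 31.8% of all such peaks were. This is 1 class of height singled out from several, and 5 peaks are too few to show a departure from that share.

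**Figure D4:**
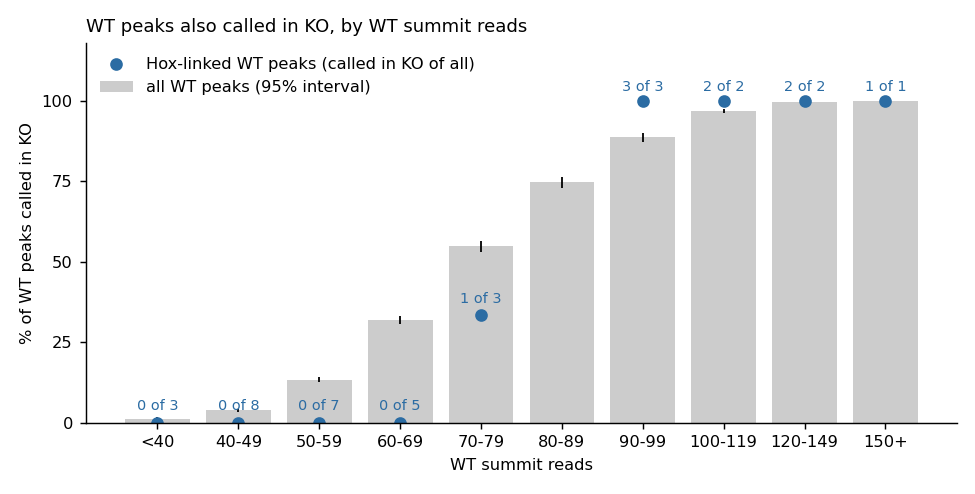
Share of WT peaks also called in KO (vertical axis, percent) by summit reads in WT (horizontal axis), with bars for all WT peaks, lines for exact 95% intervals and points for the Hox-linked peaks, each with its count. All Hox-linked peaks under 70 reads are at 0, and all 8 from 90 reads are at 100%. The bars rise from 1.27% to 100%, and at 60 to 69 reads the bar is at 31.8% where the Hox point, of only 5 peaks, is at 0.

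All 9 kept Hox peaks had fewer reads in KO than in WT, as did 99.5% of the 14315 kept peaks of all genes. Their KO reads ran from 38 to 113 with a median of 65. The median log2 ratio was -0.79 (SD over the 9 peaks 0.28), a ratio of 0.579, and the range was -1.29 to -0.35. Kept peaks of all genes with WT reads within 10% had medians between -0.98 and -0.83. The Hox peak was below the median of its matched peaks in 3 of 9 cases, at Hoxb6, the distant Hoxb1 peak and Hoxc4. The median was -0.76 over the 2 Hoxa peaks, -1.02 over the 3 Hoxb peaks and -0.73 over the 4 Hoxc peaks. Each single ratio has a counting error of 0.19 to 0.36, so these medians of 2 to 4 peaks differ by about the error of 1 peak. KO summits lay within 124 bp of the WT summit at all 9 peaks.

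**Figure D5:**
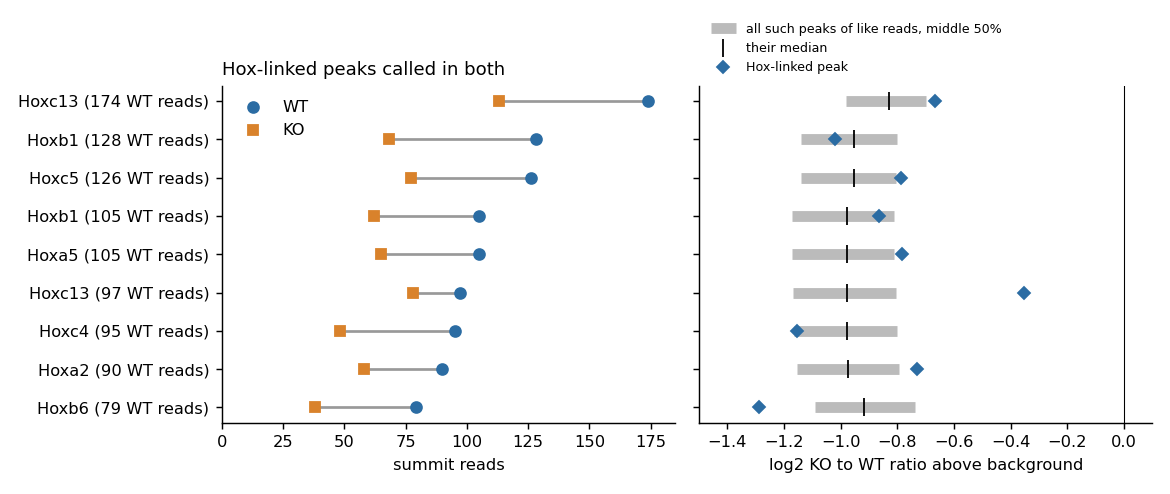
The 9 Hox-linked peaks called in both genotypes, in order of WT height, with summit reads in WT (circles) and KO (squares) on the left and the log2 KO to WT ratio above background (diamonds) on the right. Grey bands hold the middle 50% of all kept peaks of like WT reads and ticks their median, and the distant Hoxc13 peak at -0.35 lies farthest to the right of its band.

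The Hox clusters also hold lncRNA genes, many of them antisense to a Hox gene, and microRNA genes. Of the 34 Hox-linked WT summits 12 (35.3%) lay inside an annotated lncRNA gene, against 11.8% of all WT summits. How much of the Hox ground lies in lncRNA genes was not counted, so the shares do not show a preference of peaks for them. At Hoxa these were Hoxaas2, Hoxaas3, Gm15050 and LOC115490409, at Hoxb Hoxb5os, Hoxb3os and Gm53, and at Hoxc Gm30528. All 3 Hoxb6 peaks lay in Hoxb5os, and both kept Hoxa peaks lay in an lncRNA gene. When a summit was linked to the nearest gene of any type instead of the nearest protein-coding gene, only 17 of the WT peaks and 4 of the KO peaks remained linked to a Hox gene.

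Mature microRNAs of the clusters are shown because miR-196-5p and miR-10-5p, each with 1 seed, recur in more than 1 cluster, beside miR-615-3p with a seed of its own. Bases 2 to 8, the seed that pairs with targets, are in capitals. miR-196 and miR-10 are known to act on Hox messages.
miR-196b-5p (Hoxa): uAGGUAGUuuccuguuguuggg
miR-196a-5p (Hoxb and Hoxc): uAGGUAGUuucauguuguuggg
miR-10a-5p (Hoxb): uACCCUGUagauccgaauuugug
miR-10b-5p (Hoxd): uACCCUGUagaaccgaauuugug
miR-615-3p (Hoxc): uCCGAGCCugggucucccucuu
The gene of miR-615 lies in Hoxc5, and its hairpin overlapped the edge of the kept Hoxc5 peak of 126 reads. The nearest summit to it, 562 bp away, was that of the WT-only Hoxc5 peak with 45 reads. The miR-10a gene lay 2849 bp from the WT-only Hoxb4 summit. The nearest WT summit to miR-196b was 8134 bp away, and it was 4754 bp for the Hoxb copy of miR-196a and 25944 bp for the Hoxc copy. For miR-10b in Hoxd it was 147096 bp away. The 2 genes with the miR-10 seed thus lay in clusters with and without YAP peaks.

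Genes known to work with or upstream of Hox genes were counted in the same way. Of 8 TALE cofactors, homeodomain proteins that bind DNA together with Hox proteins, 5 had a linked peak in WT and 3 in KO, where the shares of all protein-coding genes were 52.5% and 29.8%, and 3 of 18 WT peaks were kept (16.7%, interval 3.58 to 41.4%). From their heights 32.1% of the 18 would be kept, a value inside the interval. Their strongest peaks had 158 WT and 112 KO reads at Meis1, 155 and 117 at Pbx4 and 107 and 49 at Meis2. Pbx3 and Pknox1 had WT-only peaks, the strongest with 77 and 63 reads. A list of 25 Polycomb genes also held Kdm6a and Kdm6b, whose products remove the Polycomb mark. Of the 25, 21 had a linked peak in WT and 11 in KO, against the same 52.5% and 29.8% of all genes. Of their 70 WT peaks 32.9% were kept, against 34.8% from their heights and 39.1% of all WT peaks. Phc1 (162 WT and 92 KO reads) and Pcgf2 (151 and 72), both of repressive complex 1, and Cbx2 (129 and 75), a reader of the repressive mark, had the strongest peaks. The core genes of the methylating complex, Ezh2, Eed and Suz12, had only WT-only peaks, of at most 61, 63 and 42 reads. Of all WT peaks, 31.8% with 60 to below 70 reads and 3.82% with 40 to below 50 were kept. Ezh1, Phf19, Pcgf3, Pcgf6, Ring1, Rnf2 and Phc3 also had only WT-only peaks. The strongest of these, at Phf19, had 94 reads, where 88.7% of all WT peaks with 90 to below 100 reads were kept.

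Of the 8 Trithorax/MLL genes, which keep Hox genes active, 7 had a linked peak in WT and 2 in KO (52.5% and 29.8% of all genes), and 2 of 13 WT peaks were kept (15.4%, interval 1.92 to 45.4%). The methyltransferase genes Kmt2b and Kmt2a had WT-only peaks of up to 96 and 76 reads, and Men1, Dpy30 and Psip1 had only WT-only peaks too. Wdr5 (79 WT and 38 KO reads) and Rbbp5 (79 and 45) each kept 1. By height 32.9% of the 13 would be kept, also inside the interval. Of 15 retinoic acid receptor and enzyme genes 10 had a linked peak in WT and 6 in KO (52.5% and 29.8% of all genes). Of 54 WT peaks 35.2% were kept, against 40.1% from their heights. The receptor genes Rxra (216 WT and 154 KO reads) and Rarg (197 and 139) led, with summits inside the gene. Next came Cyp26b1 (134 and 53), which breaks retinoic acid down, with a summit 70679 bp outside the gene. Rxrb, Aldh1a3, Dhrs9 and Crabp2 had WT-only peaks. Of 11 other homeobox genes, among them Cdx1, Cdx2, Evx1 and Evx2, only Mnx1 had a WT peak, against 52.5% of all genes. The Mnx1 peak had 49 reads and was WT-only, where 3.82% of all WT peaks with 40 to below 50 reads were kept.

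Markers of the cells that the suspension could hold were counted to check the tissue, although a peak does not measure RNA. All 10 basal and all 9 differentiated keratinocyte markers had a linked WT peak, as had 52.5% of all genes. Of their 81 and 48 peaks 49.4% and 52.1% were kept, against 39.1% of all WT peaks. From their heights 47.7% and 48.6% would be kept. A linked peak was present at 6 of 7 hair follicle, 5 of 6 melanocyte, 2 of 7 fibroblast, 1 of 5 Langerhans cell, 1 of 4 T cell and 1 of 4 endothelial markers. Shares of cell types in the 2 suspensions, and any part of them in the Hox values, were not tested.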

How the data were processed

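YAP ChIP-seq peak lists of 2 of the 4 labelled samples were used, 1 per genotype; the 2 inputs were not analysed here. Per the labels' protocols, Gold fixative (30 min) and 1% formaldehyde (10 min) were applied to 30 M cells before precipitation from 30 µg of chromatin, and 25 to 50 M reads of 51 bp were made per sample. The submitters' processing notes name Trimmomatic 0.36, SAMtools 1.5, MACS2 2.1.1 and build mm10. Aligner and settings are not named in the sources read. Each deposited score is 10 times −log10 q, truncated, as found in 100% of peaks. The deposited fold is the ratio of summit signal to background. The authors' −log10 p and −log10 q values came with each peak, the lowest −log10 q being 2.01 in WT and 2.03 in KO. The deposited lists also give the summit's distance from the peak start.

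Summit reads were solved from fold and p under Poisson scoring. Every peak (100% in each list) had a whole number that gave its −log10 p to within 0.002, and with a scaling 3% off this held for 1.77% of WT and 0.518% of KO peaks; the scaling was 0.694 in WT and 0.842 in KO. The solving was tested on simulated data made with the same formulas. Reads per 300 bp assume that extension. Summits were linked to gene spans of a RefSeq table (GRCm38.p6, no strand); where spans overlapped, a summit was counted for the shorter gene. For a ratio, the strongest overlapping KO peak was used. Tools were Python 3.11.15, NumPy 2.4.6, pandas 2.3.3, SciPy 1.17.1 and Matplotlib 3.10.9. A Hox gene and a listed cofactor, with the peaks linked to them, are not reported here. Members, lists and motifs were chosen with earlier results of these data known. All WT peaks of a cluster were named where there were 12 or fewer, otherwise the 8 strongest, the strongest WT-only and the weakest kept; per list, the 3 genes with the strongest peak and genes with no kept peak. Alternatives changed the overlap, the linking, the threshold, the list length and the ratio.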

Additional observations from a re-analysis of the deposited data

How the results depend on the processing

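No Hoxd gene had a peak under any linking distance, threshold or merging tried. Linking to the nearest gene of any type left 17 WT peaks, 4 KO peaks and 4 genes with a KO peak, with 2 WT peaks at Hoxa and 8 at Hoxb, by construction, as genes of other types took the others. With the WT list reduced to the 14879 highest scores, the number of KO peaks, 75% (9 of 12) of Hox-linked peaks were kept, against 77.8% of all. The share kept was 20.6 to 27.3% under the other alternatives (all peaks: 32.1% with 50% reciprocal overlap, 37.9% with summits within 200 bp). WT peaks at Hoxb numbered 10 within 10 kb. The median log2 ratio ran from -0.86 (background at each summit, chosen after seeing the data) to -0.49 (authors' fold), the latter a move of more than 1 SD over the peaks. By the authors' fold the distant Hoxc13 peak reversed to 0.10, Hoxa5 moved to -0.01, Hoxc4 to -0.31 and the Hoxb1 peak inside the gene to -0.47. No paired analysis was possible because there is a single pooled list per genotype, and for the same reason no replicate could be left out. Weak KO peaks limit the comparison, since no KO peak under 29 reads was called.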
